A study of Mus musculus with 6 samples.

Results

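Potassium channel subunits were examined in mouse otic vesicles, the epithelial rudiments of the inner ear, at embryonic day 11.5. The members were all probe sets that the platform annotation assigns to a single gene symbol starting with Kcn and ending in a family letter and a number. The rule used no measured value, and it took 158 probe sets of 80 genes, out of 18193 genes named on the array. The Mest-KO group held 3 arrays of T-Cre conditional Tbx1 knockout embryos, and the control group held 3 arrays of T-Cre conditional Tbx1 heterozygotes. Both groups therefore carried T-Cre, which recombines in the early mesoderm, and the controls had a conditional allele of the transcription factor gene Tbx1 as well. Each array held RNA from both ears of 3 pooled embryos of the same genotype, taken after dispase treatment and microdissection. The comparison addresses the effect of mesodermal Tbx1 loss on the vesicle.

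Potassium channels let potassium ions cross membranes down their gradient and set the resting potential of cells. Voltage-gated channels are built from pore-forming alpha subunits, to which cytoplasmic beta subunits, single-span Kcne proteins and calcium-binding Kcnip proteins attach as accessory subunits. Inward rectifiers and tandem-pore leak channels hold the resting potential, and other channels open on intracellular calcium or sodium. In the mature inner ear, potassium secreted through channels of Kcnq1 and Kcne1 fills the endolymph, and hair cells repolarise through potassium channels of several families.

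The values are intensities of probe sets on a linear scale. A negative difference means a lower value in Mest-KO, and all differences are in log2 of quantile-normalized intensity, with the standard error (SE) of the limma fit and n = 3 arrays per group. The probe set with the highest mean stood for its gene, which was tested if that mean exceeded the 40th percentile over the array, an intensity of 34.4. By this rule 38 of the 80 genes (47.5%) were tested, against 68.5% of all named genes, and 48 of the 158 probe sets (30.4%) lay above the filter, against 27022 of all 45037 probe sets. The other 42 genes were dim on these arrays. All 38 tested genes are named here to account for the family, and those beyond the rule for named genes were added after their values were seen. The precision is limited by the number of arrays, and the p-values measure the spread between these pools.

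The arrays carried the markers of the labelled tissue. The summed intensity of 10 otic epithelial markers, Oc90 and Epcam among them, ran from 53906 to 59945 in Mest-KO and from 59632 to 60561 in control, and 8 of these markers lay lower and 2 higher in Mest-KO. Of 15 neuronal markers 14 were tested, and the sums ran from 9188 to 9484 and from 8444 to 9184. The 11 mesenchymal markers were all tested, and the sums ran from 2969 to 7083 and from 2757 to 5587, with 9 markers higher and 2 lower in Mest-KO. For 10 endothelial and pericyte markers, 4 of them tested, the sums were 695 to 799 and 571 to 624. The 8 listed markers of neural crest and glia (6 analysed here, 5 tested) gave 10135 to 10369 and 9624 to 10348. That sum is mostly Erbb3, with intensities from 7421 to 8157, while Foxd3 lay below the filter at 1.23 to 31.2. The 8 markers of muscle (2 tested) gave 197 to 255 and 186 to 293. The 6 listed red blood cell markers (5 analysed here, 4 tested) gave 19119 to 22222 and 19170 to 22369, and the 6 macrophage markers (2 tested) gave 96.2 to 271 and 146 to 458. Array Mest-KO 3 had a median intensity of 91.0, against 62.1 to 71.0 on the others.

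Kcnab1, a cytoplasmic beta subunit that speeds the inactivation of voltage-gated channels, lay lower in Mest-KO. Kcnab2, a beta subunit that helps such channels reach the membrane, and Kcnj13, an inward rectifier of transporting epithelia, also lay lower, by smaller amounts. The Mest-KO mean of Kcnj13 lay under the filter, which the gene passed through its control values. The control means of Kcna1, Kcna6, Kcnip1 and Kcnk3 lay under the filter, which these genes passed through their Mest-KO values. Kcnn4, the intermediate-conductance calcium-activated channel, lay higher. None of the 38 genes passed the limma test at a Benjamini-Hochberg adjusted p under 0.05, where 0% of the 12462 genes tested passed (0 genes). At an unadjusted p under 0.05 the limma fit took 3 members as lower, against 2.91% of all genes, and 1 as higher, against 2.23%, so 10.5% of the members stood beside 5.14% of all genes. Without Mest-KO 2 the limma fit took 9 members (23.1%, against 4.96% of all genes). With limma's trend option it took 1 (2.63%, against 6.10%), and with the replicate number as a block it took 8 (21.1%, against 5.07%). The values of 3 members (7.89%) did not overlap between the groups, and the same held for 10.6% of all genes. The median difference was -0.04 over the members and -0.00333 over all genes. The median size of a difference was 0.23 over the members and 0.10 over all genes, and the median SE was 0.275 and 0.122.

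**Figure D1:**
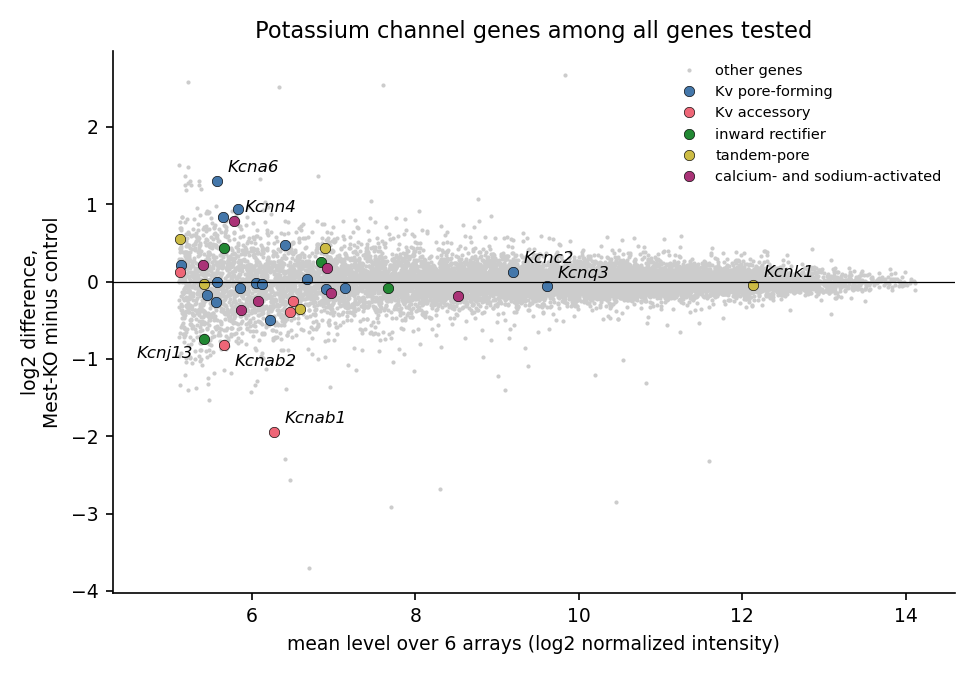
The log2 difference (Mest-KO minus control, vertical axis) is plotted against the mean log2 normalized intensity over 6 arrays (horizontal axis) for each gene tested. Grey points are the other genes and coloured points the 38 potassium channel genes by class. Kcnab1, at -1.94, lies below most genes of like intensity, and Kcnk1, Kcnq3 and Kcnc2 lie near 0.

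The beta subunit Kcnab1 was read by 2 probe sets. On the brighter probe set the intensities were 29.0, 30.5 and 75.1 in Mest-KO and 123, 201 and 132 in control. All Mest-KO values lay below all control values, and Mest-KO 3 was the highest of its group. The means were 44.9 ± 26.2 (SD, n = 3) and 152 ± 42.4 (SD, n = 3), and the normalized log2 difference was -1.94 (SE 0.288), with a 95% interval from -2.64 to -1.24, or 3.84-fold lower. Its unadjusted limma p was 0.000421, the rank of 14 among 12462 genes, and its adjusted p was 0.375. With each array median set equal in place of quantile normalization, limma called Kcnab1 (adjusted p = 8.7e-05), where 0.201% of all genes were called. Under that scaling the median of all genes was -0.14, and relative to this median Kcnab1 stood at -1.89. With the trend option the adjusted limma p was 0.0563, and over the 14 alternatives that tested the gene it ran from 8.7e-05 to 0.850. The difference lay between -2.27 and -1.68 with any array left out. It was -1.52 (unadjusted limma p of 0.00400) between the 2 Mest-KO and 2 control arrays that remain without Mest-KO 1 and control 2.

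The second probe set of Kcnab1 was dim, at 2.56, 1.43 and 3.96 in Mest-KO and 6.73, 9.34 and 4.74 in control. Its groups did not overlap either, with a difference of -1.65 (SE 0.417) in the fit of all probe sets without a filter. Both probe sets read the same RNA pools, so they are no replicates of each other. An exact permutation test of 3 arrays against 3 cannot give a p below 0.1 for any member. In such bulk RNA, fewer cells that hold a transcript and less of it per cell cannot be told apart. Among the markers, 3 of 14 tested neuronal genes (Neurod1 at 0.57, Elavl3 at 0.38 and Insm1 at 1.04) had an unadjusted limma p under 0.05 and lay higher in Mest-KO. Of all genes, 5.14% had such a p in either direction. The 14 neuronal genes split into 7 higher and 7 lower, with a median of 0.05 and Nefl lowest at -0.67. None of the 10 otic epithelial markers had such a p in either direction, with a median of -0.06. Over the tested markers of the other lists the median was 0.44 for mesenchyme, 0.40 for endothelium and pericytes and -0.76 for macrophages. It was 0.04 for neural crest and glia, 0.10 for muscle and -0.07 for red blood cells. The 4 tested markers of endothelium and pericytes lay higher and the 2 of macrophages lower. Among these other lists only Lum, a mesenchymal marker at -0.48, had such a p. The part of these cells in the Kcnab1 difference was not tested.

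RefSeq lists 3 transcription starts for Kcnab1 on chromosome 3 (GRCm38.p6), and the sources used here do not say which of them the probe sets read. The windows of 150 bases before each start are shown because Kcnab1 had the most negative difference of the 38 tested genes. They lie on the plus strand at chr3:64949062-64949211, chr3:65108864-65109013 and chr3:65187953-65188102. Short motifs were searched on both strands. The TATA box core was searched as TATAAA. The GC box core, known as a binding sequence of Sp factors, was searched as GGGCGG. The core known for GATA factors was searched as AGATAA. The T-box core, for the family of factors that Tbx1 belongs to, was searched as GGTGTG. No match overlaps another in the windows shown, and capitals mark a match.
Kcnab1, first start: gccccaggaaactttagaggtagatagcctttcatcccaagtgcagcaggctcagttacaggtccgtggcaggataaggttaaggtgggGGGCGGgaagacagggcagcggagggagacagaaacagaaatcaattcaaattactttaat
Kcnab1, second start: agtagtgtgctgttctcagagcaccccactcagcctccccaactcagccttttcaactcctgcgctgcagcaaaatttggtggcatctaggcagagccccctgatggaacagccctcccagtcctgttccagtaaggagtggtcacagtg
Kcnab1, last start: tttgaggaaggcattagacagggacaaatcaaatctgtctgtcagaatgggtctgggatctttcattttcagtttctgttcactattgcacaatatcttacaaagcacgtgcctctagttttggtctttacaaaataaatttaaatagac

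The first window held a GC box core, and the other windows held none of these letters. The windows had 3, 1 and 1 CpG dinucleotides, against a median of 4 over 32851 windows of the same length. The starts of Kcnj13 (chr1:87394730-87394879, minus strand) and Kcnn4 (chr7:24370113-24370262, plus strand) are shown beside them, as members with an unadjusted p under 0.05 in other classes.
Kcnj13: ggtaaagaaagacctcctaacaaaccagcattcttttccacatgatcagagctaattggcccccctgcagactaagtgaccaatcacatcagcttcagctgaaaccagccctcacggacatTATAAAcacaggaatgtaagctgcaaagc
Kcnn4: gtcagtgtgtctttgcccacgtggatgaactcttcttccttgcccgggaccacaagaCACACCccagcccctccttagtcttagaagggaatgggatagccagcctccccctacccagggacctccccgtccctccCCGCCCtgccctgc

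The Kcnj13 window held a TATA box core, and the Kcnn4 window held a GC box core and a T-box site core, both on the opposite strand. Of all windows, 7.57% held TATAAA, 28.6% held GGGCGG, 5.65% held AGATAA and 10.3% held GGTGTG. RefSeq promoters matched 61 of the 80 members, with 86 windows, of which 2.33%, 39.5%, 1.16% and 17.4% held the same motifs. A match is a run of letters, not a site shown to be bound.

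Kcnab2 had intensities of 40.5, 25.0 and 61.6 in Mest-KO and 99.7, 46.2 and 54.8 in control. As deposited the groups overlapped, since Mest-KO 3 lay above 2 controls, and after quantile normalization they did not. The difference was -0.82 (SE 0.298, unadjusted limma p of 0.0320), and its p was 0.0995 without Mest-KO 2 and 0.0670 without control 1. The unadjusted limma p was 0.144 with the deposited scaling and 0.0539 without a filter. It lay under 0.05 in 9 of the 14 alternatives that tested Kcnab2. A dim second probe set gave -0.69 (SE 0.971). Kcnab3, also a beta subunit, was read by 2 dim probe sets, at -0.54 (SE 0.727) and -1.14 (SE 0.837), with groups that overlapped.

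The other tested accessory subunits were Kcne3, Kcnip1 and Kcnip4. Kcne3, a single-span subunit of Kcnq channels, had 81.3, 77.4 and 88.9 in Mest-KO and 124, 59.2 and 123 in control, a difference of -0.39 (SE 0.249), and the groups overlapped at control 2. Kcnip4 differed by -0.26 (SE 0.134), and its other 2 probe sets above the filter by -0.23 and -0.00049. Kcnip1 differed by 0.12 (SE 0.553), and by -0.56 without control 1 (unadjusted limma p of 0.0196). Of the 5 accessory genes tested, 4 lay lower and 1 higher, with a median of -0.39. Both Kcne1, the partner of Kcnq1 in the endolymph-secreting channel, and Kcne2 lay below the filter. The probe sets of Kcne1 had 12.9, 20.6 and 5.06 against 29.2, 31.1 and 22.1 in control, and 27.5, 20.5 and 17.6 against 54.2, 15.3 and 37.4. The first of them had groups that did not overlap and a difference of -1.69 (SE 0.965, unadjusted limma p of 0.137 without a filter), the second -0.70 (SE 0.584).

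**Figure D2:**
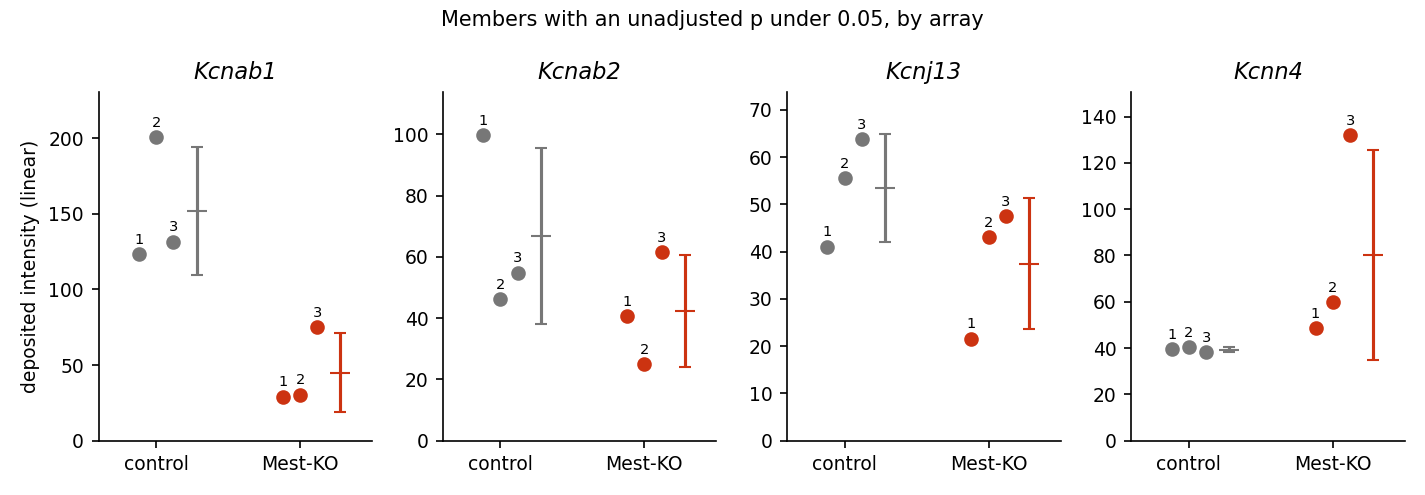
Deposited intensity (linear, from 0) is plotted for the 4 members with an unadjusted limma p under 0.05. Each point is 1 array, with its replicate number, and the bar beside the points is the mean ± SD of 3 arrays. The Kcnab1 values of Mest-KO, up to 75.1, all lie below the controls, and the Kcnn4 values of Mest-KO, from 48.5, all lie above them.

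The voltage-gated pore-forming class was the largest, with 31 genes and 65 probe sets, of which 17 genes were tested. Of these 7 lay higher and 10 lower, with a median of -0.02, and none had an unadjusted limma p under 0.05. Kcnq3, a subunit of the slow current that restrains neuronal firing, had 801, 810 and 703 in Mest-KO and 694, 933 and 793 in control. Its groups overlapped fully, and the difference of -0.06 (SE 0.137) had a 95% interval from -0.39 to 0.27. Kcnc2, a fast-deactivating channel of rapidly firing neurons, had 612, 658 and 586 against 542, 493 and 647, a difference of 0.13 (SE 0.124). Its 95% interval ran from -0.17 to 0.43, so a change of 2-fold lay outside it.

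Kcnq1, which forms the channel for potassium secretion into the endolymph, had 32.5, 61.9 and 63.6 in Mest-KO and 48.4, 49.1 and 37.6 in control. The difference was -0.0028 (SE 0.228), with an interval from -0.56 to 0.55, and its sign turned with 3 of the 6 single arrays left out, with the deposited scaling and with median centring. Kcnq5 differed by 0.48 (SE 0.274). Its control 3, at 108, lay among the Mest-KO values of 80.7, 99.5 and 138, while the other controls had 55.4 and 53.9. Without control 3 the difference was 0.77 (unadjusted limma p of 0.00605).

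Among the A-type channels of the Kcnd family, which Kcnip proteins bind, the differences were -0.26 (SE 0.762) for Kcnd1, -0.08 (SE 0.158) for Kcnd2 and -0.10 (SE 0.176) for Kcnd3. The value of Kcnd1 rested on Mest-KO 3, at 18.4 against 79.0 and 79.8 in its group, and it was 0.70 (unadjusted limma p of 0.0328) without that array. The 3 probe sets of Kcnd2 above the filter ran from -0.20 to 0.32. In the Shaker family Kcna6 had the largest difference of the class, 1.30 (SE 0.792), with a 95% interval from -0.61 to 3.22. The mean log2 level of Kcna6 was 4.93 in control, under the filter of 5.11, and 6.23 in Mest-KO, so it passed through Mest-KO. Control 3 of Kcna6, at 7.84, stood below all other arrays, which ran from 45.1 to 106, and without it the difference was 0.33. Kcna1 differed by 0.22 (SE 0.339), Kcna2 by -0.50 (SE 0.434), Kcna4 by -0.02 (SE 0.441) and Kcna5 by -0.03 (SE 0.285). Kcna5, Kcna1 and Kcna6 follow each other in the genome with no other protein-coding gene between them, and their values show no common direction.

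Kcnc4 had 88.0, 38.5 and 150 in Mest-KO and 59.8, 24.4 and 40.1 in control, a difference of 0.94 (SE 0.478) with groups that overlapped at Mest-KO 2. Without Mest-KO 2 it was 1.40 (unadjusted limma p of 0.0103), and without Mest-KO 3 it was 0.60 (unadjusted limma p of 0.254). Of the ether-a-go-go relatives, Kcnh2, whose channel repolarises heart muscle, differed by -0.09 (SE 0.350), Kcnh3 by 0.83 (SE 0.646) and Kcnh8 by 0.03 (SE 0.113). Kcnh3 rested on control 2, at 11.3 against 51.3 and 78.7 in the other controls, and was 0.04 without it. The electrically silent subunit Kcnf1 differed by -0.17 (SE 0.211).

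**Figure D3:**
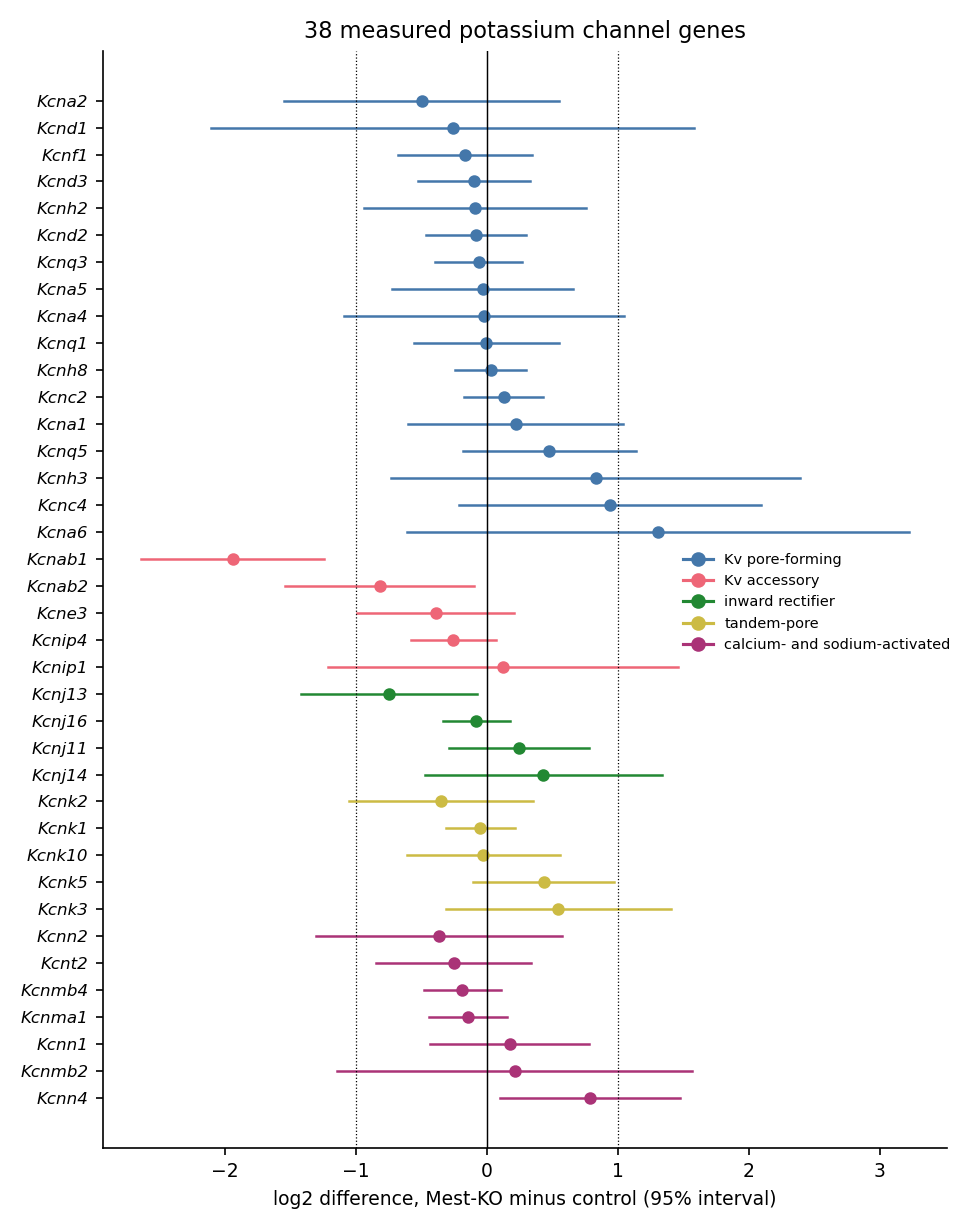
The log2 difference (Mest-KO minus control) of each of the 38 tested genes is plotted as a point with its 95% interval from the limma fit, ordered by size within each class. Dotted lines mark a 2-fold change either way. The intervals of 34 genes include 0, and those of 20 genes lie wholly between the dotted lines.

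Only 4 of 15 inward rectifier genes were tested. Kcnj13 had 21.6, 43.1 and 47.5 in Mest-KO and 41.1, 55.5 and 63.7 in control. The groups overlapped at control 1. The mean log2 level of Kcnj13 was 5.04 in Mest-KO, under the filter of 5.11, and 5.78 in control, so it passed through the controls. The difference was -0.75 (SE 0.277, unadjusted limma p of 0.0341). That p was 0.104 without Mest-KO 1, 0.0782 without Mest-KO 3, 0.0983 without control 2 and 0.102 without control 3. Kcnj16, a partner of other inward rectifiers in epithelia and glia, had 191, 194 and 219 against 239, 183 and 192. Its difference was -0.08 (SE 0.107), with -0.18 on its second probe set, and the 95% interval ran from -0.34 to 0.18. Kcnj11, the pore of the ATP-sensitive channel, differed by 0.25 (SE 0.222), and Kcnj14 by 0.43 (SE 0.373).

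Other inward rectifiers known from the ear lay below the filter. Kcnj10, of the intermediate cells of the stria vascularis, had 21.9, 25.7 and 39.9 in Mest-KO and 44.7, 20.4 and 30.2 in control. Kcnj2 had 21.0, 1.73 and 3.21 against 4.72, 12.4 and 14.9, and Kcnj8, the pore of the ATP-sensitive channel of pericytes, had 2.73, 26.7 and 70.8 against 33.8, 48.6 and 31.7. All of these overlapped between the groups.

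Of 12 tandem-pore leak channel genes, 5 were tested. Kcnk1 had 4971, 4160 and 4005 in Mest-KO and 4615, 4869 and 4360 in control. The groups overlapped, the difference was -0.05 (SE 0.109), and the 95% interval from -0.31 to 0.22 lay well inside a 2-fold change. Its second probe set had 515, 387 and 519 against 550, 503 and 625, a difference of -0.27 (SE 0.155, unadjusted limma p of 0.135). The groups of that probe set overlapped as deposited and did not after normalization.

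The acid-sensitive channels Kcnk5 and Kcnk3 were both highest on array Mest-KO 3. Kcnk5 had 117, 111 and 210 against 96.6, 100.3 and 97.4, so the groups overlapped after normalization but not as deposited, and its difference was 0.43 (SE 0.223, unadjusted limma p of 0.0976). Without Mest-KO 3 the Kcnk5 difference was 0.19 (unadjusted limma p of 0.164), and without Mest-KO 2 it was 0.59 (unadjusted limma p of 0.0481). Kcnk3 had 26.8, 29.2 and 94.0 against 25.1, 26.3 and 30.6, a difference of 0.55 (SE 0.356), and without Mest-KO 3 it was below the filter and not tested. The mean log2 level of Kcnk3 was 4.85 in control, under the filter of 5.11, and 5.39 in Mest-KO, so it passed through Mest-KO. Of the stretch-sensitive channels, Kcnk2 differed by -0.35 (SE 0.291), but by -0.65 without Mest-KO 2 (unadjusted limma p of 0.0178) and by -0.05 without Mest-KO 3 (unadjusted limma p of 0.816), and Kcnk10 by -0.03 (SE 0.241).

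Of the 11 genes of calcium- and sodium-activated channels and their beta subunits, 7 were tested. Kcnn4 had 48.5, 59.9 and 132 in Mest-KO and 39.4, 40.3 and 38.3 in control. All Mest-KO values lay above the controls, and Mest-KO 3 was 3.27 times the highest control. The difference was 0.79 (SE 0.284, unadjusted limma p of 0.0309), and 0.48 without Mest-KO 3 (p of 0.0154 in that limma fit). The p was 0.0816 without control 1 and 0.0780 without control 3. Kcnn4 is known from red blood cells. Of the 4 red blood cell markers tested, 1 lay higher and 3 lower in Mest-KO, with a median of -0.07, and their summed level is mostly that of the globin genes Hbb-y and Hba-x. The part of such cells in the Kcnn4 difference was not tested. The second probe set of Kcnn4 was dim and gave -0.20 (SE 1.08), with groups that overlapped.

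Kcnma1, the large-conductance channel that shapes the hair cell response, had 121, 122 and 130 in Mest-KO and 112, 127 and 145 in control. The difference was -0.14 (SE 0.124), with an interval from -0.44 to 0.16, and its second probe set gave -0.71. Its beta subunits Kcnmb2 and Kcnmb4 differed by 0.21 (SE 0.562) and -0.19 (SE 0.122). Kcnn2, the small-conductance channel at efferent synapses on hair cells, had 78.4, 58.0 and 42.9 against 64.1, 66.7 and 58.7. Its difference was -0.37 (SE 0.388), and it was 0.09 without Mest-KO 3. Kcnn1 differed by 0.18 (SE 0.251), with 0.08 on its second probe set, and the sodium-activated Kcnt2 by -0.25 (SE 0.245).

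**Figure D4:**
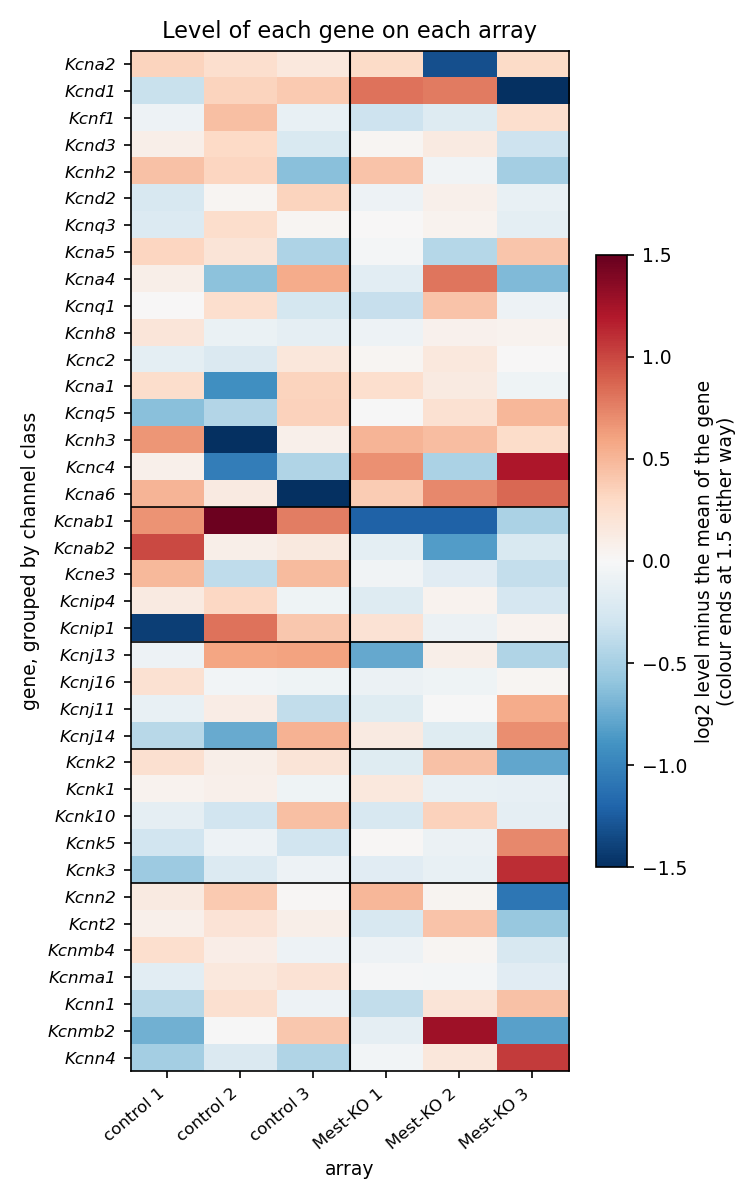
Each row is a tested gene, grouped by class, and each column an array. Colour gives the log2 normalized level minus the mean of the gene over 6 arrays. Kcnab1 changes colour at the line between the groups, and column Mest-KO 3 holds the highest value of 10 genes and the lowest of 11.

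Mest-KO 3 was the highest array for 10 of the 38 genes and the lowest for 11, against 16.8% and 21.1% of all genes. Control 1 was the highest for 8 and the lowest for 8, against 17.4% and 13.3% of all genes. Of 8 genes with more than 1 probe set above the filter, 6 had the same sign on all of them, and the exceptions were Kcnd2 and Kcnq3. The range between such probe sets went from 0.09 for Kcnn1 to 0.57 for Kcnma1. Each probe set was also tested by itself. Of the 48 above the filter, 4 had an unadjusted limma p under 0.05, the same 4 that gave Kcnab1, Kcnab2, Kcnj13 and Kcnn4, against 3.98% of all probe sets above the filter.

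In the fit of all probe sets without a filter, 11 of 158 members (6.96%) had an unadjusted limma p under 0.05, against 3.70% of all probe sets. The groups of 17 (10.8%) did not overlap, against 8.85%. Of the 11, 10 lay below the filter, 6 higher and 4 lower in Mest-KO. Those higher read Kcna4 (2.27), Kcnc1 (2.02), Kcnip2 (2.04), Kcnj11 (1.17), Kcnmb1 (2.71) and Kcnq5 (1.99), and those lower read Kcnab1, Kcnj15 (-1.96), Kcnk6 (-0.84) and Kcns3 (-0.90). Of their companions above the filter, that of Kcnab1 gave -1.94, like the dim one, and those of 3 other genes gave smaller values. The tested probe set of Kcna4 gave -0.02, that of Kcnj11 0.25 and that of Kcnq5 0.48. Other dim probe sets of the same genes varied in direction. Those of Kcnc1 gave -1.56, 0.21 and -0.00081, those of Kcnj15 1.22 and 0.32, and those of Kcnip2 0.29 and -1.17. The remaining dim probe sets of Kcnmb1, Kcnq5 and Kcns3 gave -0.15, -0.80 and -0.42.

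Genes that work with the channels were taken from lists chosen by role. Of 16 listed genes of potassium pumps, cotransporters and gap junctions, 10 were analysed here and 9 tested. At an unadjusted limma p under 0.05, 1 lay higher, against 2.23% of all genes, and 2 lower, against 2.91%. Gjb2, a gap junction gene of the cochlear supporting cells, differed by 0.23 (SE 0.0856). Atp1b1, a beta subunit of the sodium-potassium pump, differed by -0.34 (SE 0.0942), and Slc26a4, the anion exchanger of the endolymphatic duct, by -0.55 (SE 0.186). As deposited the Slc26a4 groups overlapped, with Mest-KO 3 at 80.5 and the controls from 53.4 to 79.6. After normalization they did not. Slc12a2, which loads potassium into secreting cells, differed by 0.18 (SE 0.0943). Of 13 listed partner subunits and related channels, 9 were analysed here and 2 tested. Dpp10, an accessory subunit of Kcnd channels, had 93.6, 133 and 152 in Mest-KO and 169, 170 and 158 in control, with groups that did not overlap and a difference of -0.50 (SE 0.150, unadjusted limma p of 0.0151). Amigo1, which binds a Kcnb channel, differed by -0.24 (SE 0.345). The pathway lists had medians of -0.06 and -0.37.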

How the data were processed

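Microdissected otic vesicles were measured on Affymetrix mouse arrays, 3 of Mest-KO and 3 of control, from 300 ng of total RNA per the labels' protocols. The authors used Expression Console 1.1 from Affymetrix, as the submitters' processing notes list. They deposited linear intensities, 1 per probe set, and each array had a trimmed mean of 500. How probes were summarised is not stated in the labels. Of 45101 probe sets, 64 controls were left out.

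A floor of 1 was applied before the log2 step, and quantile normalization followed. Groups were compared across all genes with limma 3.58.1 in R 4.3.3 without trend, with Benjamini-Hochberg adjustment. The fit and the adjustment were run on simulated log2 values. The floor, normalization, filter and choice of probe set were not part of that simulation. Figures used matplotlib 3.10.9 in Python 3.11.15. Platform symbols were looked up in RefSeq by gene identifier, and none was changed. A symbol whose identifier had no RefSeq entry was kept as it stood. Promoter sequences are from RefSeq (GRCm38.p6).

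The members and lists were chosen with earlier results of these data known. The rule named members with an unadjusted p under 0.05, with groups that did not overlap or with the 2 largest differences of their class, and a fixed set known from the inner ear. Alternatives covered filter, scaling, floor, probe set rule, variance trend, replicate block and arrays left out.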

Additional observations from a re-analysis of the deposited data

How the results depend on the processing

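The cause of the differences between settings was not tested, except that a filter at the 60th percentile leaves fewer genes. Over all genes the adjusted count of 0 became 7 with that filter, 25 with median centring and 13 with the trend, and it was 0 with any array left out. The 4 member genes at an unadjusted limma p under 0.05 became 0 of 5 tested with the filter at the 60th percentile (all genes 6.32%), 6 without a filter (7.50%, all genes 4.27%), 2 with the deposited scaling (1 higher, 1 lower; 5.41%, all genes 5.39%), 7 with median centring (4 higher, 3 lower; 18.9%, all genes 3.76%), 1 with the trend, and 3 to 9 with an array left out (8.11% to 23.1%, all genes 3.99% to 8.60%). The 4 member probe sets became 11 of 158 without a filter (6.96%, against 3.70% of all probe sets). For the other alternatives shares over all probe sets were not computed, so their counts cannot be set against a background. These counts were 0 with the higher filter, 1 with the deposited scaling, 7 with median centring, 2 with the trend and 3 to 8 with an array left out. The 3 members whose groups did not overlap became 8 of 80 without a filter (all genes 9.98%), 0 with the higher filter (all genes 11.2%), 5 to 10 with an array left out (13.5% to 25.6%, all genes 17.9% to 27.8%), and 10 without Mest-KO 1 and control 2 (25.0%, all genes 37.3%), an alternative taken from earlier results of these data. Fewer arrays make such separation easier. The median member difference was 0.093 with the deposited scaling, and single arrays left out gave -0.11 to 0.03.

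With the replicate number as a block, 8 member genes (21.1%, all genes 5.07%) had an unadjusted limma p under 0.05. So did 8 member probe sets, for which no share over all probe sets was computed. The deviations of arrays with the same number correlated at -0.109, -0.00832 and -0.00734, and those of arrays with different numbers at -0.1 to 0.11. Deviations from a mean of 3 arrays depend on each other, so these correlations cannot show whether the numbers pair the arrays.

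Kcnab1 stayed under an unadjusted limma p of 0.05 in all 14 alternatives that tested it. No direction turned in 18 of the 38 members. With the deposited scaling Kcna4 stood at 0.19, Kcna5 at 0.093, Kcnd3 at 0.019, Kcnh2 at 0.14, Kcnk10 at 0.14 and Kcnq1 at 0.17. With median centring Kcna4 stood at 0.045, Kcnc2 at -0.000061 and Kcnq1 at 0.024, and with the mean of probe sets Kcnd2 stood at 0.015. Without Mest-KO 1 and control 2, Kcna1 stood at -0.26, Kcna5 at 0.06, Kcnf1 at 0.12, Kcnh3 at -0.0016, Kcnq1 at 0.29 and Kcnq3 at 0.04. With an array left out, differences that turned ran from -0.19 to 0.31 for Kcna1, -0.75 to 0.039 for Kcna2, -0.42 to 0.32 for Kcna4, -0.27 to 0.18 for Kcna5, -0.73 to 0.70 for Kcnd1, -0.22 to 0.11 for Kcnd2, -0.24 to 0.030 for Kcnd3, -0.35 to 0.01 for Kcnf1, -0.42 to 0.15 for Kcnh2, -0.029 to 0.13 for Kcnh8, -0.56 to 0.20 for Kcnip1, -0.13 to 0.015 for Kcnj16, -0.14 to 0.00089 for Kcnk1, -0.20 to 0.19 for Kcnk10, -0.36 to 0.70 for Kcnmb2, -0.69 to 0.086 for Kcnn2, -0.21 to 0.17 for Kcnq1 and -0.18 to 0.054 for Kcnq3. Kcnh3 ran from 0.045 to 1.38.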

Other observations

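Some genes with related symbols fall outside the member rule. Kcne1l, an accessory subunit gene of the Kcne family, had intensities of 30.1, 31.2 and 62.5 in Mest-KO and 56.6, 43.0 and 38.4 in control, a log2 difference of -0.39 (SE 0.171, unadjusted limma p of 0.0641), with groups that overlapped as deposited. Kcnq1ot1, the imprinted non-coding RNA that overlaps Kcnq1 on the opposite strand, was read by 5 probe sets above the filter, which ran from -0.35 to 0.14. None of these had an unadjusted limma p under 0.05. A dim sixth probe set of Kcnq1ot1, with intensities from 1.46 to 6.69, gave -1.35 (SE 0.200).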
